A study of Mus musculus with 2 samples.

Results

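Cells release ATP and other nucleotides, and the nucleotides act on receptors at the cell surface until enzymes on that surface break them down. The 9 genes described here encode 5 such receptors (P2ry1, P2ry14, P2rx4, Adora1 and Adora2b) and 4 of the enzymes (Entpd1, Entpd2, Nt5e and Enpp1). They are 9 of the 31053 genes counted and 9 of a list of 61 purine genes, and they were selected on their measured values in these libraries, so their levels and differences are a description and support nothing. P2Y receptors signal through G proteins, P2X receptors are ion channels opened by ATP, and adenosine receptors bind the nucleoside that remains when the phosphates are gone. In skeletal muscle, contracting and damaged fibers release ATP, and fibroblast-like cells around them take part in its breakdown to adenosine and, by another route, to pyrophosphate, an inhibitor of mineral deposition.

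The cells are fibro/adipogenic progenitors, the mesenchymal cells between muscle fibers, sorted from limb muscles of 3-week-old C57BL/6 mice (C57BL/6J in the study's methods) as cells without the lineage antigens CD45 and CD31, without Vcam1 and with Sca1. One library came from Bap1f/f littermate control animals and is called Bap1 WT, and the other came from Prx1-Cre;Bap1f/f conditional knockout animals and is called Bap1 ΔMPC, the study's name for the genotype. Both genotypes carry the floxed Bap1 allele, and Prx1-Cre drives recombination in limb mesenchyme, so the deletion is not limited to progenitors of muscle. With 1 library per genotype there is no replicate check, the labels do not say how many animals went into each library, and genotype, animal and library cannot be told apart.

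The Bap1 WT library holds 4103 cells and 51015705 unique molecular identifiers (UMIs), with a median of 12232 per cell. The Bap1 ΔMPC library holds 4378 cells and 49540066 UMIs, with a median of 11017.5, and 5 cell barcodes occur in both. Bap1 was read first: it had 897 UMIs, or 17.6 counts per 1000000 UMIs (CPM; 95% exact Poisson interval 16.5 to 18.8), in the Bap1 WT library and 1072 UMIs, or 21.6 CPM (20.4 to 23.0), in the Bap1 ΔMPC library. Bap1 was thus not lower under the ΔMPC label. Tags at the 3′ end do not show whether a molecule carried the deleted part, so these counts check neither genotype label. Every interval given here covers counting error alone.

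Cells were put into 3 classes by their counts. Dpp4-type cells have 25 or more UMIs per 10000 of Pi16, Sema3c, Anxa3 and Efemp1 together, Cxcl14-type cells have fewer than that and 5 or more per 10000 of Cxcl14, and the rest meet neither rule. Dpp4-type cells numbered 1050 (25.6%, exact Clopper-Pearson interval 24.3 to 27.0) in the Bap1 WT library and 1251 (28.6%, 27.2 to 29.9) in the Bap1 ΔMPC library. Cxcl14-type cells numbered 569 (13.9%, 12.8 to 14.96) and 1020 (23.3%, 22.1 to 24.6), and the rest 2484 and 2107. A class is a range of values and not a cell type, and its marker levels were not all alike in the libraries. The median Cxcl14 of Cxcl14-type cells was 11.7 per 10000 in the Bap1 WT library and 19.0 in the Bap1 ΔMPC library. Smoc2, a matrix gene of Cxcl14-type cells that the rule does not use, stood at 2737 CPM in them in the Bap1 WT library and 841.5 CPM in the Bap1 ΔMPC library. Hsd11b1 and Crispld2, others that the rule does not use, stood at 177 and 62.5 CPM and at 174 and 72.5 CPM, while Col15a1 stood at 1916 and 1961 CPM. The median rule sum of Dpp4-type cells was 59.7 and 49.1 per 10000, and Dpp4, which the rule does not use, had a median of 2.78 and 2.17 in them and 0 in both other classes. Cxcl14 stood at 10.1 and 63.2 CPM in Dpp4-type cells, 6.28-fold higher (5.26 to 7.55) in the Bap1 ΔMPC library. A Cxcl14 UMI was found in 5.52% and 19.8% of them.

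Levels are CPM of UMIs summed over the cells of a class. Each UMI is 1 tag at the 3′ end of 1 molecule, so levels are not divided by gene length, and an order of levels among genes is an order of counted tags. A gene enters a comparison with 20 or more UMIs in both sums together, and a difference is called when it exceeds 3-fold. Between the libraries, 8 of the 9 members had enough UMIs. In Dpp4-type cells 0 of them were over 3-fold higher and 2 lower in the Bap1 ΔMPC library, where 1.47% and 1.22% of 11599 genes were. In Cxcl14-type cells 0 were higher and 4 lower, beside 2.64% and 1.52% of 11649 genes, and in the rest 0 were higher and 3 lower, beside 1.86% and 1.11% of 11757 genes. Between Dpp4-type and Cxcl14-type cells of the Bap1 WT library, 2 members were over 3-fold higher and 2 lower in Dpp4-type cells, beside 3.65% and 5.15% of 11603 genes. The same comparison in the Bap1 ΔMPC library had 1 higher and 2 lower, beside 2.97% and 5.86% of 11710 genes. Over all cells of a library, a comparison that class limits do not touch, 0 members were higher and 2 lower, beside 1.45% and 1.11% of 11761 genes. There Enpp1 stood at 30.1 and 4.30 CPM (7.01-fold lower) and Entpd1 at 19.3 and 3.61 CPM (5.35-fold lower), while P2ry14 (2.85-fold) and P2ry1 (2.43-fold) did not pass 3-fold. Members were chosen on these same contrasts, so nothing is read from these counts.

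P2ry1, a Gq-coupled receptor for ADP, was a gene of Cxcl14-type cells in the Bap1 WT library. It stood at 63.4 CPM (57.5 to 69.7; 425 UMIs) in Cxcl14-type cells, 16.3 CPM (14.9 to 17.8) in the rest and 2.76 CPM (1.96 to 3.78; 39 UMIs) in Dpp4-type cells. The corresponding levels in the Bap1 ΔMPC library were 16.7 CPM (14.4 to 19.3; 188 UMIs), 7.10 CPM (6.07 to 8.26) and 1.83 CPM (1.20 to 2.66; 27 UMIs). The order of the classes was alike in both libraries, Cxcl14-type cells highest and Dpp4-type cells lowest, with no overlap of neighbours. P2ry1 fell 3.80-fold (3.19 to 4.53) between the libraries in Cxcl14-type cells; its ratio was 0.437 in the rest and 0.662 (0.390 to 1.11) in Dpp4-type cells. In the Bap1 WT library 46.7% of Cxcl14-type cells had a P2ry1 UMI (23.6% after every cell was thinned to 5000 UMIs), against 13.4% (6.55% thinned) in the Bap1 ΔMPC library. Thinning leaves out 120 and 210 cells with fewer UMIs than that. P2ry1 was 23.0-fold lower (16.5 to 32.7) in Dpp4-type than in Cxcl14-type cells of the Bap1 WT library and 9.13-fold lower (6.08 to 14.2) in the Bap1 ΔMPC library; the first fold ranged from 10.3 to 57.5 over the alternatives.

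P2ry14, a receptor for UDP-glucose and other UDP-sugars, was more evenly spread. Its levels in the Bap1 WT library were 25.8 CPM (22.1 to 29.96) in Cxcl14-type cells, 12.3 CPM (11.0 to 13.6) in the rest and 10.3 CPM (8.73 to 12.2) in Dpp4-type cells, the last pair with overlapping intervals. The Bap1 ΔMPC library gave 6.39 CPM (5.004 to 8.05), 3.87 CPM (3.12 to 4.75) and 4.88 CPM (3.81 to 6.14), and there Dpp4-type cells overlapped both other classes. All 3 levels of the Bap1 ΔMPC library thus lay under the lowest of the Bap1 WT library. P2ry14 fell 4.04-fold (3.05 to 5.39) in Cxcl14-type cells and 3.17-fold (2.51 to 4.03) in the rest, and had a ratio of 0.471 (0.350 to 0.629) in Dpp4-type cells. With cells thinned, the fold in the rest was 2.91 and no longer over 3. Thinned shares of cells with a UMI were 11.8% and 3.38% in Cxcl14-type cells, 5.32% and 1.96% in the rest, and 5.81% and 2.66% in Dpp4-type cells.

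P2rx4, a cation channel opened by ATP, differed little among classes. In the Bap1 WT library it stood at 25.9 CPM (24.1 to 27.8) in the rest, 23.2 CPM (20.8 to 25.9) in Dpp4-type and 22.7 CPM (19.2 to 26.6) in Cxcl14-type cells, with all 3 intervals overlapping. In the Bap1 ΔMPC library it stood at 36.1 CPM (32.6 to 39.7) in Cxcl14-type cells, 32.7 CPM (29.9 to 35.8) in Dpp4-type cells and 30.2 CPM (28.0 to 32.5) in the rest, again with overlapping neighbours. Each of these levels was above its counterpart, with ratios of 1.59 (1.32 to 1.93), 1.41 (1.22 to 1.62) and 1.17 (1.05 to 1.29), none of them over 3-fold. P2rx4 made up 87.2% of the UMIs of the 7 P2X receptor genes in the Bap1 WT library and 81.4% in the Bap1 ΔMPC library.

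Adora2b, a Gs-coupled adenosine receptor, was a gene of Dpp4-type cells in both libraries. Dpp4-type cells had 25.4 CPM (22.9 to 28.2) in the Bap1 WT library and 24.99 CPM (22.5 to 27.7) in the Bap1 ΔMPC library. Cxcl14-type cells had 5.37 CPM (3.76 to 7.44) and 7.55 CPM (6.03 to 9.33), and the rest had 6.59 CPM (5.71 to 7.57) and 7.23 CPM (6.18 to 8.40), so those classes overlapped within each library. The Dpp4-type level was 4.73-fold higher (3.36 to 6.87) than the Cxcl14-type level in the Bap1 WT library and 3.31-fold higher (2.61 to 4.24) in the Bap1 ΔMPC library. Between the libraries the ratios were 0.983 (0.847 to 1.14) in Dpp4-type cells, 1.41 (0.941 to 2.14) in Cxcl14-type cells and 1.10 (0.889 to 1.35) in the rest. Thinned shares in Dpp4-type cells were 11.4% and 10.6%. The Gi-coupled receptor Adora1 had 2 UMIs in the Bap1 WT library and 4 in the Bap1 ΔMPC library, too few for a fold; its 0 UMIs in Dpp4-type and Cxcl14-type cells of the Bap1 WT library allow up to 0.261 and 0.550 CPM (upper bounds of the exact Poisson interval).

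Among the enzymes, Enpp1, which splits ATP into AMP and pyrophosphate, differed most between the libraries. Its levels in the Bap1 WT library were 61.5 CPM (55.7 to 67.7; 412 UMIs) in Cxcl14-type cells, 35.0 CPM (32.9 to 37.1; 1056 UMIs) in the rest and 4.89 CPM (3.80 to 6.19; 69 UMIs) in Dpp4-type cells, 3 separate levels. In the Bap1 ΔMPC library Cxcl14-type cells had 6.13 CPM (4.77 to 7.76; 69 UMIs) and the rest 5.40 CPM (4.50 to 6.43; 127 UMIs), which overlapped, and Dpp4-type cells had 1.15 CPM (0.671 to 1.84; 17 UMIs). Enpp1 fell 10.0-fold (7.76 to 13.1) in Cxcl14-type cells, 6.47-fold (5.38 to 7.85) in the rest and 4.25-fold (2.47 to 7.70) in Dpp4-type cells. The last fold was 2.93, and no longer over 3, with a Dpp4-type threshold of 40 UMIs per 10000. The thinned share of cells with a UMI was 22.7% and 2.76% in Cxcl14-type cells and 11.2% and 2.21% in the rest. Enpp1 was 12.6-fold lower (9.73 to 16.5) in Dpp4-type than in Cxcl14-type cells of the Bap1 WT library and 5.32-fold lower (3.097 to 9.66) in the Bap1 ΔMPC library. Over the alternatives these folds ranged from 5.45 to 39.3 and from 3.12 to 12.1.

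Entpd1, or CD39, takes ATP and ADP down to AMP. It stood at 33.9 CPM (29.6 to 38.6) in Cxcl14-type cells, 18.9 CPM (17.4 to 20.5) in the rest and 13.3 CPM (11.5 to 15.4) in Dpp4-type cells of the Bap1 WT library. The Bap1 ΔMPC library held 4.00 CPM (2.92 to 5.35), 3.15 CPM (2.47 to 3.95) and 4.06 CPM (3.101 to 5.23) in the same order. The classes that stood apart in the first library thus overlapped in the other, where every level was low. Entpd1 fell 8.47-fold (6.13 to 11.9) in Cxcl14-type cells, 6.01-fold (4.71 to 7.76) in the rest and 3.28-fold (2.44 to 4.46) in Dpp4-type cells. That last fold was under 3 with a Dpp4-type threshold of 40 UMIs per 10000, with thinned cells, and without cells over 3% mitochondrial UMIs, where its lowest value was 2.58. The thinned share was 12.7% and 1.64% in Cxcl14-type cells, 8.18% and 1.46% in the rest and 5.91% and 2.16% in Dpp4-type cells. Dpp4-type over Cxcl14-type cells gave a ratio of 0.393 in the Bap1 WT library and 1.02 in the Bap1 ΔMPC library.

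Entpd2, an enzyme that prefers ATP and releases ADP, had by far the most UMIs of the 9 genes. Cxcl14-type cells held 761 CPM (739.9 to 782) in the Bap1 WT library and 849.5 CPM (833 to 867) in the Bap1 ΔMPC library. The rest held 523 CPM (515 to 531) and 561 CPM (551 to 570.5), and Dpp4-type cells 308 CPM (299 to 317) and 501 CPM (489.8 to 513). No intervals overlapped, and the order Cxcl14-type, rest, Dpp4-type was alike in both libraries. The ratio of the libraries was 1.63 (1.57 to 1.69) in Dpp4-type cells and 1.12 (1.08 to 1.16) in Cxcl14-type cells. In the rest it was 0.10 on the log2 scale, below the median of 0.11 over all genes there, and its sign turned with TMM scaling (-0.03). The thinned share of Dpp4-type cells with a UMI was 66.1% and 84.6%, while 94.3% and 94.7% of Cxcl14-type cells had one. Entpd2 overlaps Npdc1 on the same strand, and 171 of the 552 bases of its last exon also lie in Npdc1 exons. Npdc1 had 15398 UMIs; reads in shared exon bases may have been given to neither gene, so the level of Entpd2 is uncertain by an unknown amount.

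Nt5e, or CD73, which turns AMP into adenosine, was the scarcest member with enough UMIs for a fold. Dpp4-type cells had 5.24 CPM (4.12 to 6.58; 74 UMIs) in the Bap1 WT library and 4.40 CPM (3.40 to 5.61; 65 UMIs) in the Bap1 ΔMPC library. The rest had 2.58 CPM (2.04 to 3.22) and 2.25 CPM (1.69 to 2.95), and Cxcl14-type cells 1.64 CPM (0.819 to 2.94; 11 UMIs) and 2.13 CPM (1.37 to 3.17; 24 UMIs). Dpp4-type cells were highest in each library and the other classes overlapped. The intervals of the libraries overlapped in every class. Nt5e was 3.19-fold higher (1.69 to 6.67) in Dpp4-type than in Cxcl14-type cells of the Bap1 WT library, a value that rests on 11 UMIs and ranged from 1.26 to 4.61 over the alternatives; the Bap1 ΔMPC library gave a ratio of 2.07.

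**Figure D1:**
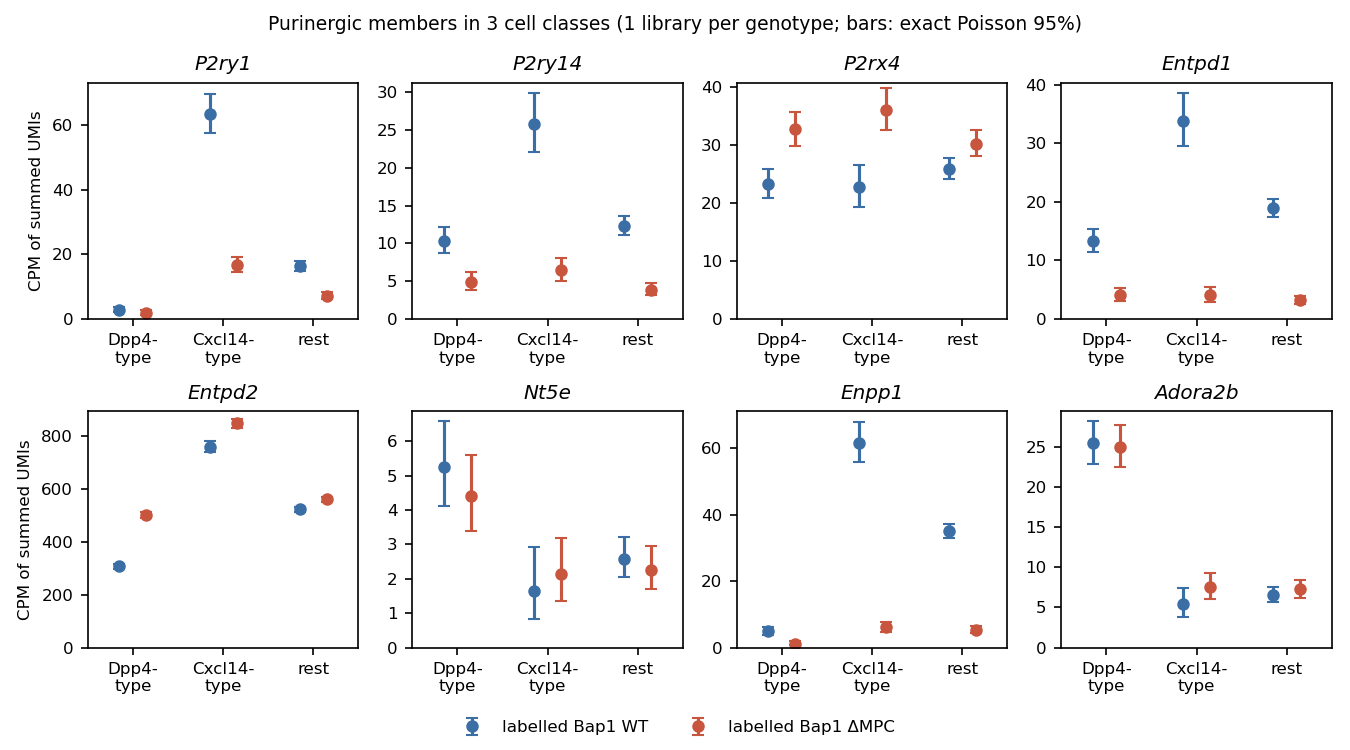
Level of 8 members (y axis, CPM of summed UMIs, from 0, with its own scale for each gene) in Dpp4-type cells, Cxcl14-type cells and the rest (x axis) of the Bap1 WT (blue) and Bap1 ΔMPC (red) libraries; points are 1 library each and bars are exact Poisson 95% intervals. Enpp1 in Cxcl14-type cells goes from 61.5 to 6.13 CPM, while Adora2b in Dpp4-type cells stands at 25.4 and 24.99 CPM; Adora1 is not drawn.

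Free RNA in the droplets gives a low share of cells with a UMI to genes that the cells do not express, and the sort holds no cell type known to lack the members. Acta1, the actin of muscle fibers, stands in as a gene these cells should lack. Its thinned share was 3.64% of Dpp4-type cells, 10.2% of Cxcl14-type cells and 6.73% of the rest in the Bap1 WT library, and 4.24%, 3.79% and 2.77% in the Bap1 ΔMPC library. A thinned share at or below that of Acta1 in the same class was not told apart from background here, but 1 gene can neither mark nor clear a member. In the Bap1 WT library this holds for P2ry1, Nt5e, Enpp1 and Adora1 in Dpp4-type cells, Nt5e, Adora1 and Adora2b in Cxcl14-type cells, and P2ry14, Nt5e, Adora1 and Adora2b in the rest. In the Bap1 ΔMPC library it holds for 6 members in Dpp4-type cells, 6 in Cxcl14-type cells and 5 in the rest, Entpd1, Enpp1, P2ry14, Nt5e and Adora1 in each. Acta1 itself was at 31.8 CPM in Cxcl14-type cells of the Bap1 WT library and 9.77 CPM in those of the Bap1 ΔMPC library, so this fiber RNA was lower there too. Acta1 in Dpp4-type cells was at 11.4 and 11.7 CPM. The share of 1 fiber gene sets no level for other genes. The part of free RNA in the members' differences was not tested.

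Cells near the class limits were set side by side, and the intervals of cells inside and outside overlap for each pair of values given here except Entpd2. In the Bap1 WT library, 95 cells had a rule sum of 25 to 30 per 10000 and 115 had 20 to 25. Enpp1 stood at 30.3 CPM in the first set, just inside the Dpp4-type limit, and 37.9 CPM in the second, just outside. Those 95 cells hold 38 of the 69 Enpp1 UMIs of all Dpp4-type cells in that library, so the low Enpp1 level of the class depends on where the limit lies. P2ry1 stood at 10.4 CPM inside and 20.9 CPM outside, and Adora2b at 22.3 and 12.4 CPM. Entpd2 stood at 477 CPM (439.6 to 517) inside and 555.5 CPM (519 to 594) outside. In the Bap1 ΔMPC library, with 172 cells inside and 165 outside, Adora2b stood at 19.2 and 17.1 CPM and Enpp1 at 3.28 and 3.63 CPM. At the other limit, Bap1 WT cells with 5 to 7 Cxcl14 UMIs per 10000 had 51.5 CPM of P2ry1 and those with 3 to 5 had 35.3 CPM, and Enpp1 stood at 63.6 and 54.5 CPM. The Bap1 ΔMPC library had 10.4 CPM of P2ry1 inside and 13.6 CPM outside that limit, and 1.39 and 6.82 CPM of Entpd1 (2 and 13 UMIs).

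Members were also counted within single cells. After thinning, 20.04% of Cxcl14-type cells of the Bap1 WT library had UMIs of 3 or more members, against 2.97% in the Bap1 ΔMPC library. The corresponding shares were 9.01% and 2.21% in the rest and 4.13% and 2.91% in Dpp4-type cells. Cells with no member made up 24.9% of Dpp4-type cells in the Bap1 WT library and 10.1% in the Bap1 ΔMPC library, the class in which the Entpd2 share was 66.1% and 84.6%. In the rest of the Bap1 WT library, 50 of 2408 thinned cells had both Entpd1 and Enpp1, where the product of their shares gives 22.1. P2ry1 and Enpp1 shared 40 cells against 19.5, and P2ry1 and Entpd1 31 against 14.2. In Cxcl14-type cells of the Bap1 WT library Entpd1 and Enpp1 shared 18 cells against 16.1, close to the product, and P2ry1 and Enpp1 42 against 29.99. In the rest of the Bap1 ΔMPC library Entpd1 and Enpp1 shared 1 cell against 0.642, P2ry1 and Enpp1 2 against 1.35, and P2ry1 and Entpd1 5 against 0.889. P2ry14 and Entpd1 shared 7 against 0.540 in the Cxcl14-type cells of that library, but 6 against 8.38 in those of the Bap1 WT library. P2rx4 and Entpd1 lay below the product in the Bap1 ΔMPC library, with 0 against 2.62 in Cxcl14-type cells and 1 against 4.01 in the rest. Pairs above and below the product thus occurred in both libraries. The cells of a pair come from 1 library and differ in type within the class, so these are descriptions.

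Subsets defined by other genes, each with a sum of 5 or more UMIs per 10000 of its list, differed in some of the members. Hmcn1, Meox1 and Etv4 cells in the rest of the Bap1 WT library (297 cells) had 94.1 CPM of Enpp1 against 27.5 CPM in the other cells of the rest, 3.41-fold higher (2.98 to 3.90). Those 297 cells held 317 of the 1056 Enpp1 UMIs of the rest of that library. They had 1.48 against 13.6 CPM of P2ry14 but 23.4 against 15.4 CPM of P2ry1, and 394 against 539 CPM of Entpd2, so neither receptors nor enzymes differed one way. Entpd1 in them stood at 31.4 against 17.3 CPM. The rest of the Bap1 ΔMPC library held 71 such cells, so their numbers were not alike in the libraries. The part of this in the Enpp1 fold of the rest was not tested. In those 71 cells Enpp1 stood at 13.8 against 5.13 CPM, on 10 UMIs, and Entpd1 at 2.76 against 3.16 CPM. Fmo2, Angpt2 and Stc1 cells in the rest of the Bap1 WT library (268 cells) were low in Enpp1 (4.36 against 38.3 CPM) and Entpd1 (5.37 against 20.4 CPM). They had 633 against 511 CPM of Entpd2. Tendon-like cells with Chad, Tnmd and Cilp2 were low in Entpd2 in the rest of both libraries, at 265 against 530.4 CPM in 57 Bap1 WT cells and 198 against 592 CPM in 155 Bap1 ΔMPC cells. Nt5e stood at 10.1 against 1.57 CPM (19 UMIs) in those Bap1 ΔMPC cells and at 8.52 against 2.42 CPM in the Bap1 WT cells. The Bap1 WT value rests on 7 UMIs, and over tendon-like cells of all classes there the ratio was 2.47 with an interval that includes 1 (0.978 to 5.21). Enpp1 in tendon-like cells was 4.87 against 35.8 CPM in the Bap1 WT library and 18.7 against 4.25 CPM in the Bap1 ΔMPC library. The first value rests on 4 UMIs, and 1 cell holds 12 of the 35 UMIs behind the other. Spon1, Cldn2, Hsd11b2 and Angpt4 cells among the Cxcl14-type cells of the Bap1 ΔMPC library (376 cells) had 0.465 CPM of Entpd1, on 2 UMIs, against 6.18 CPM. In the rest of that library the ratio for such cells was 0.403 with an interval that includes 1 (0.107 to 1.08). Wnt4, Pcsk2 and Rtl4 cells of that library (67 cells of any class) had 28.7 CPM of P2ry1 (19 UMIs) and 15.1 CPM of P2ry14 (10 UMIs). All other cells had 7.43 and 4.60 CPM, and that group includes the Dpp4-type cells, in which P2ry1 is at 1.83 CPM. Krt7 and Plet1 cells among its Dpp4-type cells (111 cells) had 613 against 490.3 CPM of Entpd2, while over all classes the ratio was 1.05 with an interval that includes 1 (0.989 to 1.12).

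Genes most like a member were ranked by the ratio of their CPM in cells with a UMI of the member to that in cells without one, taking the lower of both libraries. For P2ry1 these were Tenm4 (4.03), Necab1 (3.94) and Cldn15 (3.85), and for P2ry14 they were Ces1d (2.68), P2ry1 (2.64) and Tenm4 (2.58). Tenm4 was thus among the 3 for both P2Y receptor genes. For Enpp1 they were Tagln (4.58), Thbs4 (3.98) and F2r (3.69), for Entpd1 Nppc (2.74), 1500009L16Rik (2.16) and Prss12 (2.01), and for Nt5e Angptl7 (4.44), Akr1c18 (3.39) and Kera (2.80). Adora2b and P2rx4 had Mrgprg first (6.17 and 1.89), and Entpd2 had Heyl (12.7), 8030423F21Rik (8.16) and Cxcl14 (8.05). Cxcl14 defines a class used here. Cells without an Entpd2 UMI are a minority, and a cell with more UMIs shows more genes, so depth enters these ratios.

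The other 52 genes of the purine lists were compared the same way, and 28 of them had 100 or more UMIs. In Cxcl14-type cells 0 of 25 with enough UMIs were over 3-fold higher and 2 lower in the Bap1 ΔMPC library, beside 2.64% and 1.52% of 11649 genes. The 2 lower were Enpp3, a relative of Enpp1 that also cleaves ATP, at 43.9 and 13.1 CPM (3.34-fold, 2.73 to 4.09), and Enpp5 at 8.80 and 2.66 CPM (3.30-fold, 2.09 to 5.31). In Dpp4-type cells 2 of 24 were higher, P2rx6 at 0.354 and 1.83 CPM and Alpl at 0.354 and 1.42 CPM, each with 5 UMIs in the Bap1 WT library, and 0 were lower. In the rest 1 of 26 was higher, P2rx6 at 0.464 and 3.49 CPM, and 1 lower, Art4 at 7.75 and 1.53 CPM. Over all genes, 1.47% were higher and 1.22% lower in Dpp4-type cells, and 1.86% and 1.11% in the rest. With so few list genes, nothing is read from these counts. The median log2 ratio of these other list genes was -0.25 in Cxcl14-type cells, -0.11 in Dpp4-type cells and -0.09 in the rest, against 0.07, 0.07 and 0.11 over all genes. That of the 8 members was -0.88, -0.42 and -0.70. In Cxcl14-type cells 4 members lay above 0 and 4 below, so their median falls in the gap between them, and nothing is read from it because the members were chosen on these contrasts.

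Grouped by role, the NTPDases were dominated by Entpd2, which held 90.2% of their UMIs in the Bap1 WT library and 95.4% in the Bap1 ΔMPC library. Among the NPPs, Enpp2 (autotaxin, which makes lysophosphatidic acid) held 60.8% of the UMIs in Cxcl14-type cells of the Bap1 WT library and 90.5% in those of the Bap1 ΔMPC library. Its own level there was 183 and 238 CPM. On the side of ATP and pyrophosphate release, Gja1 (connexin 43) stood at 174 and 91.3 CPM in Cxcl14-type cells, Panx1, an ATP release channel, at 7.31 and 13.7 CPM, and Ank, an exporter linked to extracellular pyrophosphate, at 34.8 and 48.2 CPM. None of the 5 release genes with enough UMIs passed 3-fold between the libraries in any class. Adenosine uptake and breakdown had 0 of 5 over 3-fold in each class as well. Shares over all genes ran from 1.11% to 2.64% in each direction, so nothing is read from 0 of 5. Adk, which phosphorylates adenosine, stood at 94.3 and 38.8 CPM in Cxcl14-type cells, and Slc29a1, a nucleoside transporter, at 320.2 and 191 CPM. Alpl, the phosphatase that hydrolyses pyrophosphate, was 50.1-fold lower in Dpp4-type than in Cxcl14-type cells of the Bap1 WT library (0.354 and 17.8 CPM), a fold that rests on 5 UMIs and has an interval of 20.9 to 157. In the Bap1 ΔMPC library it was 6.50-fold lower (4.04 to 10.9; 1.42 and 9.24 CPM). Cd38, an NAD-splitting ectoenzyme, was 17.4-fold (6.18 to 67.5) and 17.2-fold (8.04 to 44.1) lower in the same comparison, on 4 and 7 UMIs in Dpp4-type cells. Ank was 3.51-fold (2.83 to 4.35) and 3.36-fold (2.86 to 3.96) lower. Entpd3, Entpd4, Panx2 and Panx3 had no UMI; Entpd4 has a near-identical copy in the annotation, so its 0 is uncertain.

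**Figure D2:**
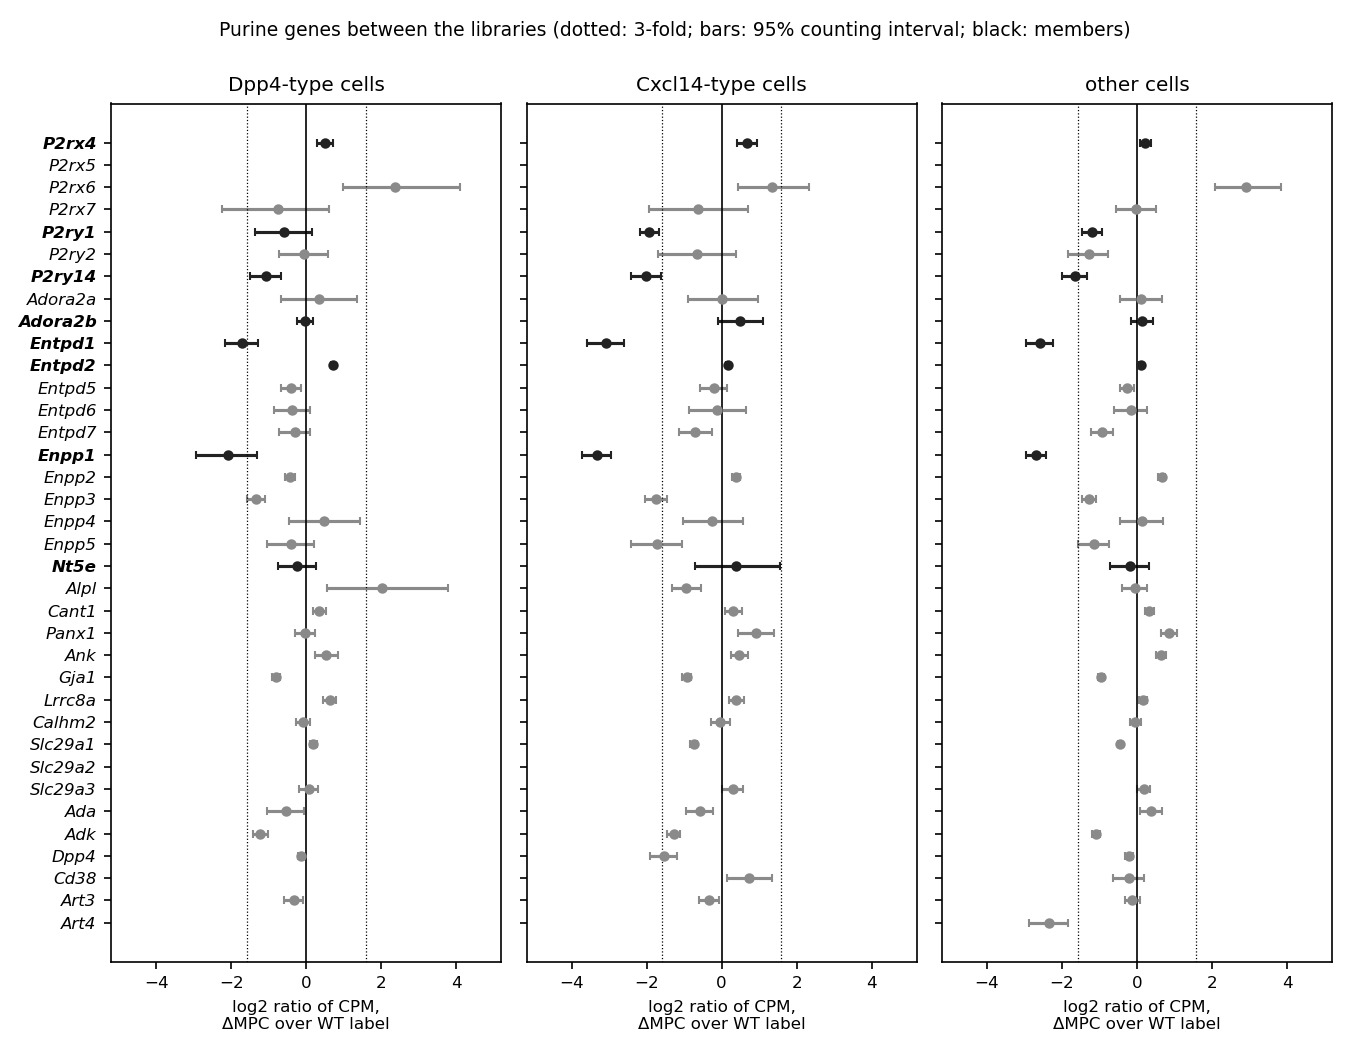
Log2 ratio of CPM, Bap1 ΔMPC over Bap1 WT (x axis), for purine genes with 100 or more UMIs (y axis; members in black and bold, others in gray) in each class; bars are 95% counting intervals, dotted lines mark 3-fold, and genes under the minimum of expression or of UMIs have no point. Enpp1, Entpd1, P2ry14 and P2ry1 lie left of the dotted line in Cxcl14-type cells, with Enpp3 and Enpp5.

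Marker lists of other cell types were summed beside these results. The progenitor list was strong in both libraries, 6 of 6 genes at 69706 and 45173 CPM, led by Col3a1. Immune genes summed to 8.15 and 13.1 CPM (7 of 10 genes, Cd68 the most abundant), with Ptprc, Adgre1 and Itgam at 0 UMIs in both. Muscle stem cell genes summed to 41.9 and 24.8 CPM (3 of 6, mostly Vcam1), with Pax7, Myf5 and Myod1 at 0. Endothelial genes stood at 14.9 and 12.9 CPM (8 of 8, led by Kdr and then Pecam1), and mural genes at 219.7 and 208.7 CPM (8 of 8, led by Ndufa4l2). Schwann cell genes stood at 21.7 and 68.0 CPM (8 and 7 of 8, led by S100b, Sox10 at 0 in the Bap1 ΔMPC library) and erythroid genes at 37.5 and 23.5 CPM (4 of 4, led by Hbb-bs). Adipocyte genes were at 8.19 and 84.2 CPM (5 and 6 of 6, led by Fabp4, Cidec at 0 in the Bap1 WT library), tendon genes at 219 and 458 CPM (6 of 6, led by Thbs4), and cycling genes at 38.1 and 73.3 CPM (6 of 6, led by Mki67 and then Top2a). Myofiber genes stood at 70.5 and 41.5 CPM (6 of 6, led by Acta1 and then Tnnt3). These sums are over all cells. In Cxcl14-type cells alone, endothelial genes went the other way, at 9.55 and 19.5 CPM. Pecam1 alone gave 10.3 of the 19.5 CPM. Adipocyte genes stood at 11.9 and 123 CPM there, Schwann cell genes at 17.5 and 96.0 CPM, and myofiber genes at 107 and 43.1 CPM. The Schwann cell sums are mostly 1 gene: S100b alone gave 14.2 and 92.2 CPM there, and 16.8 and 63.7 CPM over all cells. Their rise is thus that of S100b and not of the list. The part of these differences in the members' levels was not tested.

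On the mm10 assembly the members lie on 8 chromosomes, and P2ry1 and P2ry14 share chromosome 3. P2ry1 lies at chr3:61002795-61008982 on the plus strand and P2ry14 at chr3:59113855-59153618 on the minus strand, inside Med12l on the opposite strand, which had 41 UMIs in both libraries together. P2ry12 and P2ry13, receptor genes of the same cluster, had 4 and 1 UMIs. Among neighbours of the pair, Igsf10 stood at 165 and 89.1 CPM, Rap2b at 53.7 and 42.7 CPM and Mbnl1 at 216 and 219.8 CPM over all cells. Enpp1 lies at chr10:24637914-24712159 on the minus strand, and Enpp3, at chr10:24772406-24842823 on the same strand, is the next protein-coding gene. Both were over 3-fold lower in Cxcl14-type cells of the Bap1 ΔMPC library. In Dpp4-type cells and in the rest Enpp1 was over 3-fold lower and Enpp3 was not. Entpd1 lies at chr19:40612366-40741602, Entpd2 at chr2:25395874-25401321, P2rx4 at chr5:122707544-122729738, Nt5e at chr9:88327197-88372092 and Adora2b at chr11:62248984-62266453, all on the plus strand, and Adora1 at chr1:134199223-134235431 on the minus strand.

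Promoters are shown for P2ry1, Entpd1 and Enpp1, 3 of the 4 members that were lower in Cxcl14-type cells, and for Entpd2, which was not called. The RefSeq table (GRCm38.p6) matched 9 of 9 members; the sequence of P2ry14, the fourth, is not printed because its RefSeq start lies inside the annotated gene. Each run is the 250 bases before the start, 5′ to 3′, at chr3:61002535-61002784 (plus) for P2ry1, chr19:40612116-40612365 (plus) for Entpd1, chr10:24712160-24712409 (minus) for Enpp1 and chr2:25395624-25395873 (plus) for Entpd2. Capitals mark matches on either strand to the motifs searched: GGGCGG (in 32.7% of 32851 promoters), CCAAT (33.8%), TATAAA (12.4%), CACGTG (6.02%) and TGANTCA (6.75%).
P2ry1: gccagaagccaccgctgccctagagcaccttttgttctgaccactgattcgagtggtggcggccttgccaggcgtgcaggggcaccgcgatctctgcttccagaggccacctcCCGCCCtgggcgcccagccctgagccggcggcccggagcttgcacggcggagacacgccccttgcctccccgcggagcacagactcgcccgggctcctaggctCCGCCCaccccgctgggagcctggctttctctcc
Entpd1: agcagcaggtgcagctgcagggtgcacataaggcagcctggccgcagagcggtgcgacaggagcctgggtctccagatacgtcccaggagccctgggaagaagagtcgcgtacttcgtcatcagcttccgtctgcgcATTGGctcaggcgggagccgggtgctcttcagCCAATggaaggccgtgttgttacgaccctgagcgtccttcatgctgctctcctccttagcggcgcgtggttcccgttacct
Enpp1: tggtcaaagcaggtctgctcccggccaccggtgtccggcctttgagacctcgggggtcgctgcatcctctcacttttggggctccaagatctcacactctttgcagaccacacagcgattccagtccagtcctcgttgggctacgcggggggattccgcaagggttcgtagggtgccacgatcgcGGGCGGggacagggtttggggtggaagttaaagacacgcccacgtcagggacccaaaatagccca
Entpd2: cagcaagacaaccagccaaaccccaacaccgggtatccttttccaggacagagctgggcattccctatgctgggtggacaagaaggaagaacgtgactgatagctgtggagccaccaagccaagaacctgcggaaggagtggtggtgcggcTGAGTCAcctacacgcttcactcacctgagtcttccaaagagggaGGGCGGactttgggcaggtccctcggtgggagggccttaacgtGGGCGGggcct
The P2ry1 run holds 2 GGGCGG matches, the Enpp1 run 1, the Entpd1 run 2 CCAAT matches, and the Entpd2 run 2 GGGCGG and 1 TGANTCA. The P2ry14 run, not printed, holds 1 TGANTCA. No searched motif was held by all 4 members that were lower in Cxcl14-type cells. Their CpG pairs numbered 20 (P2ry1), 18 (Entpd1), 17 (Enpp1) and 4 (P2ry14), against a median of 6 over all promoters. Members not called there had 22 (Adora2b), 21 (Nt5e), 13 (P2rx4) and 9 (Entpd2), so CpG number did not separate the sets. The RefSeq start of Nt5e, like that of P2ry14, lies inside the annotated gene. With P2ry14 and Nt5e left out, CpG number still did not separate the sets, and P2ry1, Entpd1 and Enpp1 shared no searched motif. A match describes letters only.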

How the data were processed

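The deposited tables hold raw UMI counts per gene and cell, with no normalization by the authors. Per the submitters' processing notes, reads were handled with bcl2fastq 2.20.0, FastQC 0.11.7, Cell Ranger 3.1.0 on the mm10 build, and Seurat 3.2.1 in R 3.6.1; the study's methods state that doublets and cells other than progenitors were removed, without thresholds. No doublet caller was run here. The members and lists were chosen with earlier results of these data known.

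Every deposited cell was used. UMIs were summed per class and library and divided by the class total. Genes were compared when their mean normalized expression exceeded 0.01 and both sums together held 20 or more UMIs; the genes of the class rule were left out of class comparisons. Ratios carry an exact conditional 95% interval for 2 Poisson counts, levels an exact Poisson interval, and shares a Clopper-Pearson interval. A fold over 3 was called, and no test was run, since each genotype has 1 library. Cells were also thinned without replacement to 5000 UMIs (seed 7). Subsets needed 5 or more UMIs per 10000 of their list and 50 or more cells; the adipocyte-type and Lgr5 subsets had fewer. Named genes were the 9 members, list genes with 100 or more UMIs, the 3 genes most like each member with 100 or more positive cells per library, marker genes, and neighbours of P2ry1 and P2ry14. Genes at 50 or more UMIs in positive cells could be ranked as alike. Enpp3 as the neighbour of Enpp1, the overlap of Entpd2 with Npdc1, Acta1 as the background gene, the comparison over all cells, and the subsets and gene pairs described were chosen after their values were seen.

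Alternatives changed the scaling (TMM factors or medians of ratios), the minimum of UMIs, the fold, both class thresholds, the summing over cells, the depth, and the cells kept. Calculations used Python 3.11.15 with numpy 2.4.6, scipy 1.17.1 and matplotlib 3.10.9, and R 4.3.3 with edgeR 4.0.16 for TMM factors alone. The ratio and interval code was tested on simulated data.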

Additional observations from a re-analysis of the deposited data

How the results depend on the processing

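Over 14 alternatives, no called fold of a member within or between classes turned its direction. The fold of 2, the minimum of 100 UMIs and the lack of a minimum leave each fold as it is, so they could not turn one. Folds over all cells and folds of other genes were not put through the alternatives. P2ry1, P2ry14, Entpd1 and Enpp1 in Cxcl14-type cells kept folds over 3 under each alternative, with lowest values of 3.42, 3.54, 7.12 and 8.76, as did Entpd1 (5.26) and Enpp1 (5.64) in the rest. The 2 members lower in Dpp4-type cells became 1 with a minimum of 100 UMIs, which Enpp1 does not reach, 1 with thinned cells, 1 without cells over 3% mitochondrial UMIs and 0 with a Dpp4-type threshold of 40. The 2 members higher in Dpp4-type than in Cxcl14-type cells of the Bap1 WT library became 1 with a minimum of 100 UMIs, a Dpp4-type threshold of 40, a Cxcl14-type threshold of 10, a mean over cells, thinned cells, without the 5% of cells with the most UMIs, and without cells over 3% mitochondrial UMIs. The 2 members lower in that comparison became 5 at a fold of 2. In the Bap1 ΔMPC library, the 1 member higher became 2 at a fold of 2, and the 2 lower became 1 with a minimum of 100 UMIs. A changed fold or minimum alters the counts by construction. For the other alternatives the cause was not tested. The share of all genes called is given for the main settings alone, so nothing is read from member counts under the alternatives. P2ry1 in Dpp4-type cells had a log2 ratio between -1.51 and 0.33. Its fold between the classes of the Bap1 WT library ranged from 10.3 to 57.5, and that of Enpp1 from 5.45 to 39.3.

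Pairing of samples could not be used, as there is 1 library per genotype, so no paired analysis was possible and spread among animals was not measured. Cxcl14 itself was 2.97-fold higher in the Bap1 ΔMPC library, and the make-up of its Cxcl14-type class was not alike. Spon1, Cldn2, Hsd11b2 and Angpt4 cells numbered 376 in that class, but 58 of any class in the Bap1 WT library. The other 644 Cxcl14-type cells of the Bap1 ΔMPC library had 7.48 CPM of Enpp1, 6.18 of Entpd1, 20.4 of P2ry1 and 7.62 of P2ry14. Cxcl14-type cells of the Bap1 WT library had 61.5, 33.9, 63.4 and 25.8 CPM. Whether the class takes in still other cells was not tested, so levels within the class and its make-up cannot be told apart. Folds of Nt5e and of P2ry1 and Enpp1 in Dpp4-type cells rest on fewer than 100 UMIs in each sum. Where a count is 0, only the upper bound is known.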
